A study of Arabidopsis thaliana with 10 samples.

Results

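SEPALLATA1 to SEPALLATA4 and their sister clade of AGAMOUS-LIKE6 genes were searched for peaks of the complexes that their own protein family forms. The 6 genes were SEP1 (AT5G15800), SEP2 (AT3G02310), SEP3 (AT1G24260), SEP4 (AT2G03710), AGL6 (AT2G45650) and AGL13 (AT3G61120), of 27444 protein-coding genes on the Arabidopsis thaliana nuclear chromosomes. The genes were picked by clade and not by any measured value. A peak summit was assigned to a gene when it fell between 3000 bp before the annotated start and 1000 bp past the end. This gave 37 member summits among 43308 summits in 9 peak lists. The 6 regions were 6271 to 6920 bp long, somewhat longer than the median of 6078 bp over all genes.

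The lists came from DNA-affinity purification sequencing (DAP-seq), in which a protein made in vitro pulls down fragments of naked genomic DNA. The SEP3-AG group (3 libraries) held tagged SEP3 together with tagged AGAMOUS (AG). The SEP3∆tet-AG group (2 libraries) held AG with a splice form of SEP3 that lacks a short stretch of the tetramerisation region. The SEP3 group (4 libraries) held SEP3 alone, without any partner. All libraries used the same kind of DNA, amplified by PCR from seedlings that were 2 weeks old, and 1 input DNA sample was the common control. The proteins came from a wheat germ extract, and DNA copied by PCR carries neither chromatin nor methylation. Both AG complexes were purified on FLAG beads and next on Myc beads while SEP3 was purified on FLAG beads only, so partner and purification cannot be told apart in comparisons with SEP3. The study shows replicate protein reactions of both AG complexes but does not tie them to the libraries, and p-values therefore measure the spread between these libraries, which may be technical.

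MADS-domain proteins of the MIKC type bind DNA as dimers at CArG boxes, and a pair of dimers can join through the K domain into a tetramer that holds 2 boxes. SEP proteins are the shared partners in the floral tetramers: with the A, B and C class proteins they specify sepals, petals, stamens and carpels, and with AG they specify carpels and end the growth of the floral meristem. Several MADS genes are known to be targets of MADS complexes, SEP genes among them, so the question here was which of the members carried binding sites for SEP3-AG, for the complex impaired in tetramerisation and for SEP3.

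The lists differed in length before any gene was considered. SEP3-AG lists held 8888, 6643 and 9588 summits, SEP3∆tet-AG lists 3331 and 2329, and SEP3 lists 473, 1225, 1915 and 8916. The list of SEP3 replicate 4 stood apart from the other SEP3 lists in its length, and its peaks carried another name prefix. The lowest fold enrichment that a library listed ran from 1.80 to 2.39, so a missing summit can be a site bound below that library's threshold. Values that rest on SEP3 replicate 4 are given with and without it.

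SEP1, SEP3, SEP4 and AGL6 carried SEP3-AG sites, and SEP2 and AGL13 did not. Each of the 3 SEP3-AG libraries had summits at the same 4 members, 5, 6 and 7 summits in replicates 1, 2 and 3 (mean 6.0 ± 1.0, SD, n = 3). Of all genes, 38.3%, 30.3% and 39.6% had a summit in these libraries. SEP3∆tet-AG replicate 1 had 4 summits at SEP3, SEP4 and AGL6, where 16.7% of all genes had one. SEP3∆tet-AG replicate 2 had 1 summit, at SEP4, against 11.9% of all genes (mean of both libraries 2.5 ± 2.12, SD, n = 2). SEP3 replicates 1 and 2 had none at any member, where 2.47% and 6.61% of all genes had a summit. SEP3 replicate 3 had 4 summits at SEP3, SEP4 and AGL6, against 9.19% of all genes. SEP3 replicate 4 had 10 summits at 5 members, all but SEP2, against 36.0% of all genes. The SEP3 mean of 3.5 ± 4.73 (SD, n = 4) was 1.33 without replicate 4.

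Scaled to the length of the list, the complexes had similar numbers of member summits. Per 1000 summits of the list, members had 0.732 ± 0.17 in SEP3-AG (SD, n = 3), 0.815 ± 0.545 in SEP3∆tet-AG (n = 2) and 0.802 ± 1.01 in SEP3 (n = 4). These differences were smaller than the spread between replicates in the SEP3∆tet-AG and SEP3 groups.

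Summits within 200 bp of each other were grouped as a site, and a site with a summit in at least 2 libraries of a complex was called a consensus site of that complex. Of 13 member sites, 7 were consensus sites of some complex and the other 6 were in SEP3 replicate 4 only. SEP3-AG had 6 consensus sites at 4 of 6 members, and 35.8% of all genes had one. The genes SEP3 and AGL6 had 2 such sites each, and 8.14% of all genes had at least 2. SEP3∆tet-AG had 1 consensus site, at SEP4, and 11.2% of all genes had one. The SEP3 libraries had 3 consensus sites, at the genes SEP3, SEP4 and AGL6, and 11.1% of all genes had one. All 3 rested on replicates 3 and 4, and no member site was left without replicate 4, where 4.57% of all genes had one. The same held without replicate 3, where the share of all genes was 6.62%.

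The rest of the MIKC-type family, 33 genes, served as a comparison within the family. SEP3-AG consensus sites lay at 4 of the 6 members and at 27 of these 33 genes (81.8%). SEP3∆tet-AG consensus sites lay at 1 of the 6 members and at 15 of the 33 (45.5%). SEP3 consensus sites, with replicate 4 included, lay at 3 of the 6 members and at 17 of the 33 (51.5%). The members' share was below that of the rest of the family for each complex. With 6 genes, a single gene moves the members' share by a large step, and the difference from the family was not tested. By clade, SEP3-AG sites lay at 4 of 4 A class, 2 of 2 B class, 2 of 4 C and D class, 5 of 6 SOC1 clade and 6 of 6 FLC clade genes.

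**Figure D1:**
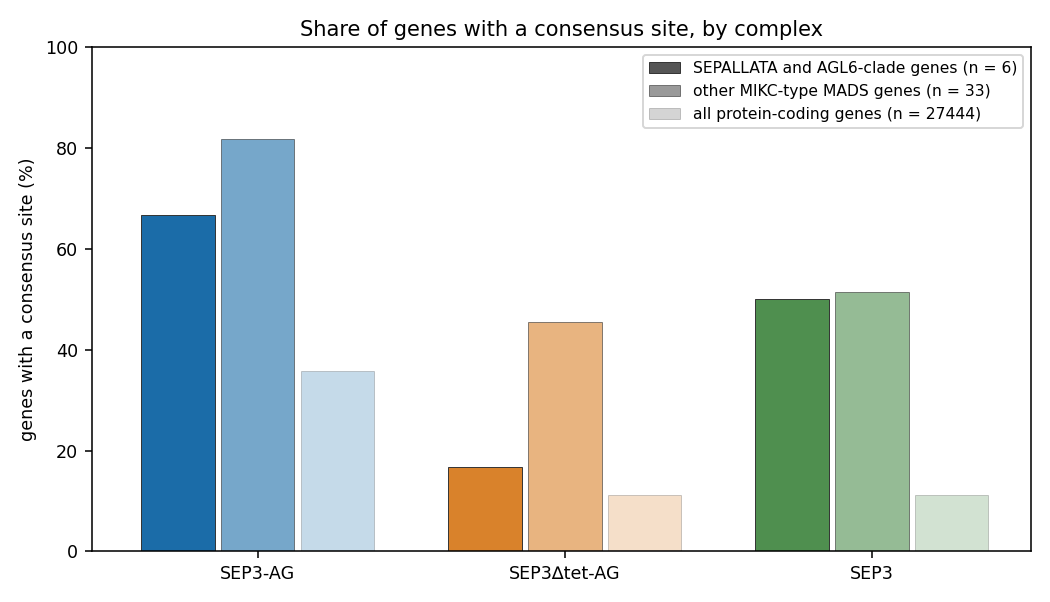
Percentage of genes with a consensus site (vertical axis) for the SEP3-AG, SEP3∆tet-AG and SEP3 complexes, for the 6 SEPALLATA and AGL6-clade genes, the other 33 MIKC-type genes and all 27444 protein-coding genes. The members stand at 4, 1 and 3 of 6, below or near the other MIKC-type genes and above all genes in each complex, and the SEP3 bar of the members falls to 0 without replicate 4. The SEP3 bar of the other MIKC-type genes was not recounted without that library.

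The DNA at the member sites shows how their sequences relate to the CArG box, which was defined as CC, then 6 bases that are each A or T, then GG. Windows of 101 bp around the sites are printed from the TAIR10 sequence, 5′ to 3′ on the strand of the gene, with capitals on boxes that have at most 1 mismatch. The 5 sites that were present in all 3 SEP3-AG libraries are shown.
AGL6, 66 bp upstream (chr2:18804074-18804174, + strand): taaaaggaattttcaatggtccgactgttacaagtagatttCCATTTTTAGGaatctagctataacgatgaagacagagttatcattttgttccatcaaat
SEP4, 374 bp upstream (chr2:1128805-1128905, + strand): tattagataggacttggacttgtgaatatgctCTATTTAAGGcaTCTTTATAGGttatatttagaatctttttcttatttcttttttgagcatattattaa
SEP3, 2740 bp upstream (chr1:8598813-8598913, - strand): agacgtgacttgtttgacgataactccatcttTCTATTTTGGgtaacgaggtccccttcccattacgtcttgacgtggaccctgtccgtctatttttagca
SEP3, 513 bp into the gene (chr1:8595560-8595660, - strand): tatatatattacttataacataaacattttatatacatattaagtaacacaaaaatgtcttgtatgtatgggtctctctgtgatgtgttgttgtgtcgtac
SEP1, 1605 bp upstream (chr5:5155808-5155908, - strand): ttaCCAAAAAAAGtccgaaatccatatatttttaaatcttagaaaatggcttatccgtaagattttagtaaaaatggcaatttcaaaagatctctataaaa

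None of the 7 member consensus sites had an exact box within 50 bp of the summit. An exact box was within that distance at 9.23% of all SEP3-AG, 13.9% of SEP3∆tet-AG and 13.1% of SEP3 consensus sites, and in 0.605% of windows of the same length centred 500 bp upstream of all genes. Boxes with at most 1 mismatch were found at 5 of the 7 member sites. Such boxes were at 53.5% of SEP3-AG, 64.3% of SEP3∆tet-AG and 61.1% of SEP3 consensus sites and in 12.5% of the upstream windows. At AGL6 a pair of overlapping boxes, CCATTTTTAG and CATTTTTAGG, lay 4.5 and 3.5 bp from the summit, and at SEP4 the boxes CTATTTAAGG and TCTTTATAGG lay 13.5 and 1.5 bp from it. At SEP3 the box TCTATTTTGG lay 13.5 bp from the upstream summit. The box of SEP1 lay 42.5 bp away, and the intron site of SEP3 had none.

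A 16 bp matrix learned from the 600 best SEP3-AG sites outside the member regions was used to score the same 5 sites. The AGL6 site scored 15.07 bits, at or above 94.6% of SEP3-AG consensus sites, and the upstream SEP3 site scored 14.56 bits, at or above 92.4%. The SEP4 site at 374 bp scored 8.97 bits, at or above 44.7%, and the SEP1 site 8.69 bits, at or above 42.2%. These scores were for other stretches than the boxes in capitals, CTTTTTTGAG at SEP4, 34.5 bp from the summit, and GTAAAAATGG at SEP1, 21.5 bp from it. The upstream SEP3 score was for CTATTTTGGG, 12.5 bp from the summit, which overlaps the box in capitals and has 2 mismatches. The intron site of SEP3 scored 8.35 bits, at or above 39.0%. The median SEP3-AG site scored 9.48 bits, and 2.02% of upstream windows reached that score. AGL6 and upstream SEP3 thus scored far above the median and the other 3 sites below it.

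SEP2 and AGL13, which had no consensus site, also contained CArG boxes. Exact boxes are shown with 3 flanking bases and with the box in capitals, on the strand of the gene, to compare boxes that had no summit at them.
SEP2, 400 bp into the gene: tacCCTAATAAGGtta
AGL13, 1346 bp upstream: cttCCTTTTTTGGgct
SEP1, 2006 bp upstream: gtaCCATAATTGGtgc
SEP3, 1002 bp into the gene: tttCCAATTTTGGgtt
The SEP2 box scored 8.21 bits with the matrix and no library had a summit anywhere in the region. The AGL13 box scored 4.96 bits and lay 532 bp from the nearest summit. The SEP1 box scored 6.55 bits and lay 401 bp from the nearest summit, and the SEP3 box scored 10.98 bits and lay 471 bp from the nearest. A further exact box of SEP3, 3190 bp past the start, scored 1.89 bits. Exact boxes occurred in the regions of 33.5% of all genes, and the regions of SEP4 and AGL6 held none.

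The strongest member site lay upstream of SEP3, the gene that encodes the SEP3 protein itself. The summit at chr1:8598863 was 2740 bp upstream of the start, within the non-coding RNA gene AT1G05863 (chr1:8598624-8598990, + strand), and 1528 bp from the start of the neighbour AT1G24265. SEP3-AG fold enrichment there was 7.86, 6.95 and 9.29 in replicates 1, 2 and 3 (mean 8.03 ± 1.18, SD, n = 3). SEP3∆tet-AG replicate 1 had 3.80, while SEP3∆tet-AG replicate 2 and the 4 SEP3 libraries had no summit. The SEP3-AG summits ranked in the best 16.9% to 25.5% of their lists, and the SEP3∆tet-AG summit at 48.2%. All 3 SEP3-AG values lay above the single SEP3∆tet-AG value, and the site was not tested because SEP3∆tet-AG replicate 2 had no value.

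A weaker site lay in intron 1 of SEP3, 513 bp past the start (chr1:8595610). SEP3-AG fold enrichment was 4.22, 2.95 and 4.16, the single SEP3∆tet-AG value 2.40 in replicate 1, and the SEP3 values 2.70 in replicate 3 and 3.54 in replicate 4. The groups SEP3-AG and SEP3 overlapped, since SEP3-AG replicate 2 lay below SEP3 replicate 4. Recovered fragment pileups at the summits were 130.0, 80.9 and 90.9 in SEP3-AG, 61.9 in SEP3∆tet-AG and 51.1 and 67.0 in SEP3. The remaining 3 SEP3 sites, 1983, 1746 and 142 bp upstream, were in SEP3 replicate 4 only, with fold enrichment of 2.42, 3.26 and 2.64.

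SEP4, which acts with the other SEP genes in sepal and meristem identity, had the member site with summits in every heteromer library. The summit 374 bp upstream (chr2:1128855) was present in all 5 heteromer libraries and in 1 of 4 SEP3 libraries, and it was the only member consensus site of SEP3∆tet-AG. SEP3-AG fold enrichment was 6.34, 5.52 and 7.38 (mean 6.41 ± 0.932, SD, n = 3), SEP3∆tet-AG had 3.61 and 2.92 (mean 3.26 ± 0.488, SD, n = 2), and SEP3 replicate 4 had 4.46. Every SEP3-AG value was above the SEP3∆tet-AG values and above the SEP3 value. Within their own lists, the SEP3-AG summits ranked at 26.9% to 38.3% from the top, the SEP3∆tet-AG summits at 51.0% and 77.1%, and the SEP3 replicate 4 summit at 11.1%.

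A further SEP4 site 789 bp upstream (chr2:1128440) was a consensus site of SEP3 and of neither heteromer. It lay inside the peak regions of SEP3-AG replicates 1 and 2 (chr2:1128238-1129112 and chr2:1128343-1129083), whose listed summit was the one at 374 bp. The missing summits of these libraries therefore do not show that SEP3-AG left the position unbound. SEP3-AG replicate 3 had a fold enrichment of 3.20 there, and SEP3 replicates 3 and 4 had 2.85 and 3.02. Its SEP3 summits lay 100 bp apart and were no longer joined when windows had to overlap by 80%, which left 2 SEP3 consensus sites at members. No CArG box with at most 1 mismatch lay within 50 bp of the site's best summit. The best matrix score within that distance was 5.98 bits, at or above 19.8% of SEP3-AG sites. A stretch just past that distance, CTTTAAATAG with 2 mismatches, scored 10.52 bits, at or above 60.7% of SEP3-AG sites. It lay 9 bp from the summit of SEP3-AG replicate 3.

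AGL6 is best known from its role in flowering time and lateral organs in Arabidopsis and in floral organs of grasses and petunia. Its main site was 66 bp upstream of the start (chr2:18804124). SEP3-AG fold enrichment was 6.48, 5.33 and 6.60 (mean 6.14 ± 0.701, SD, n = 3), SEP3∆tet-AG replicate 1 had 3.24, and SEP3 replicates 3 and 4 had 2.87 and 3.76. All SEP3-AG values lay above those of the other complexes. SEP3 replicate 3 had a second summit 110 bp past the start with a fold enrichment of 2.86. This was the only summit of the 37 in an annotated untranslated region, and the intron 1 summits of SEP3 were the only others inside a member gene.

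A second AGL6 site, 2254 bp upstream (chr2:18801936), had fold enrichment of 2.61 and 3.03 in SEP3-AG replicates 2 and 3 and no summit in the other 7 libraries. It ranked near the end of both lists, at 96.8% and 92.7%, and lay 465 bp from the start of SAP18 (AT2G45640), so the site cannot be given to AGL6 rather than to SAP18. The box CCGTATTTGG with 1 mismatch lay 43.5 bp from its summit at the edge of the window. The best matrix score of the site within 50 bp of the summit was 2.76 bits, at or above 5.80% of SEP3-AG sites. That score left out the box CCGTATTTGG, because the 16 bp matrix placed on it ran past the window edge. Scored over the whole region, this box had 12.69 bits, at or above 81.0% of SEP3-AG sites. It lay 19 bp from the nearest summit. A summit in SEP3 replicate 4 only, 2548 bp upstream with a fold enrichment of 3.03, lay 171 bp from the SAP18 start.

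SEP1, which acts redundantly with SEP2 and SEP3 in petals, stamens and carpels, had a single consensus site, of SEP3-AG alone. The SEP3 site 2740 bp upstream and the AGL6 site 2254 bp upstream were also consensus sites of SEP3-AG alone. Over the genome SEP3-AG had 8201 consensus sites, against 2173 of SEP3∆tet-AG and 2217 of SEP3. Many SEP3-AG sites must therefore be of SEP3-AG alone, and this is not a trait particular to these members. The SEP1 summit 1605 bp upstream (chr5:5155858) had fold enrichment of 6.19, 4.78 and 6.50 in SEP3-AG (mean 5.82 ± 0.917, SD, n = 3), and no summit in the 6 libraries of SEP3∆tet-AG and SEP3. It also fell within the regions of AT5G15802 and AT5G15810. SEP3 replicate 4 had another summit 174 bp upstream, with a fold enrichment of 3.44, where a box with 1 mismatch, CCATAAATAG, scored 11.33 bits. The difference between the complexes at the upstream site was not tested, since a library without a summit has no value.

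SEP2, the closest relative of SEP1, had no summit in any of the 9 libraries, like 47.4% of all genes (13015 of 27444). The nearest summit outside its region was 1729 bp past the edge, in SEP3 replicate 4, with a fold enrichment of 3.24. The region of SEP2 held 1 matrix match at or above the median SEP3-AG score, 10.31 bits at 1986 bp past the start, and 68.5% of all gene regions held at least 1. AGL13, the sister gene of AGL6, had a single summit, in SEP3 replicate 4, with a fold enrichment of 2.95 at 813 bp upstream and 570 bp from the start of GAUT1. Its 2 matrix matches were not within 100 bp of that summit.

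**Figure D2:**
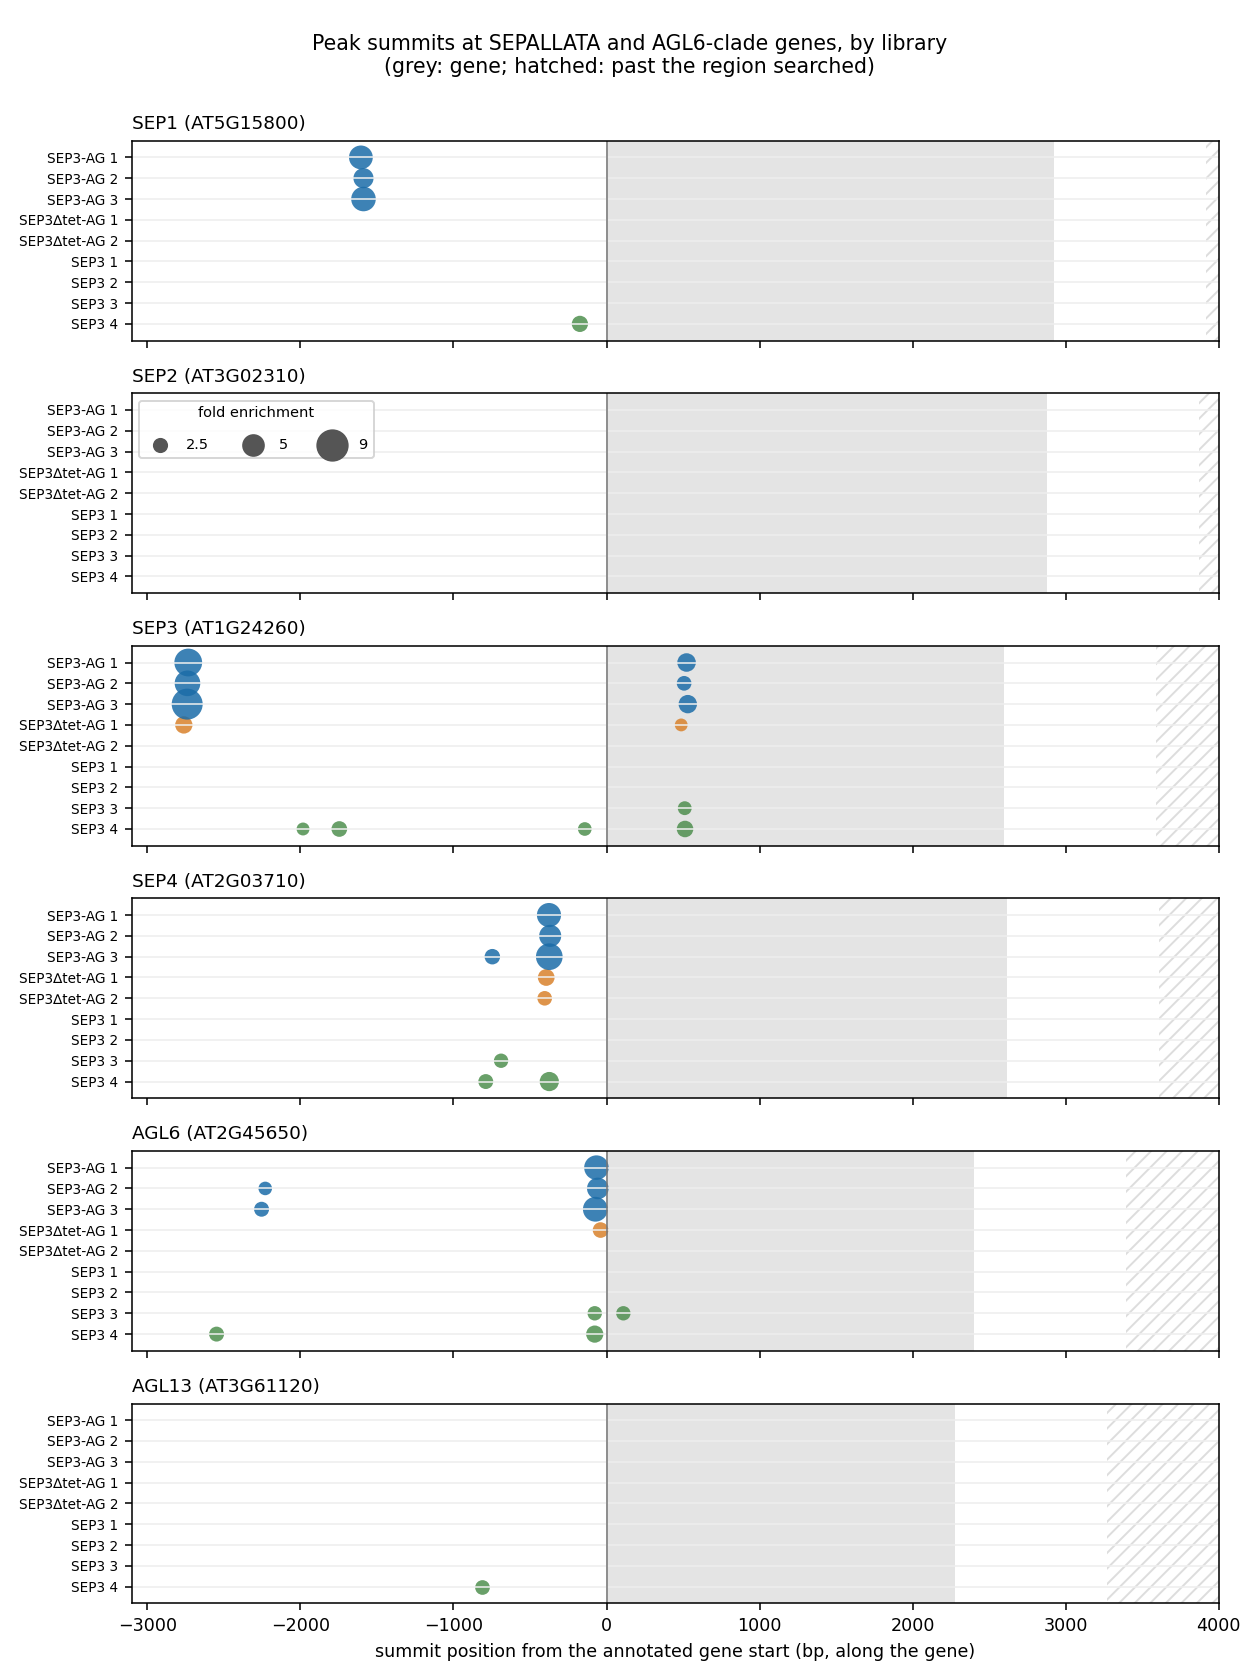
Summits of the 9 libraries at the 6 member genes, plotted against the distance in bp from the annotated gene start along the gene, with libraries in rows (SEP3-AG on top, then SEP3∆tet-AG and SEP3) and the size of a point giving its fold enrichment. SEP3-AG points line up 1605 bp upstream of SEP1, 2740 bp upstream and 513 bp into SEP3, 374 bp upstream of SEP4 and 66 bp upstream of AGL6, and the SEP2 row is empty.

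**Figure D3:**
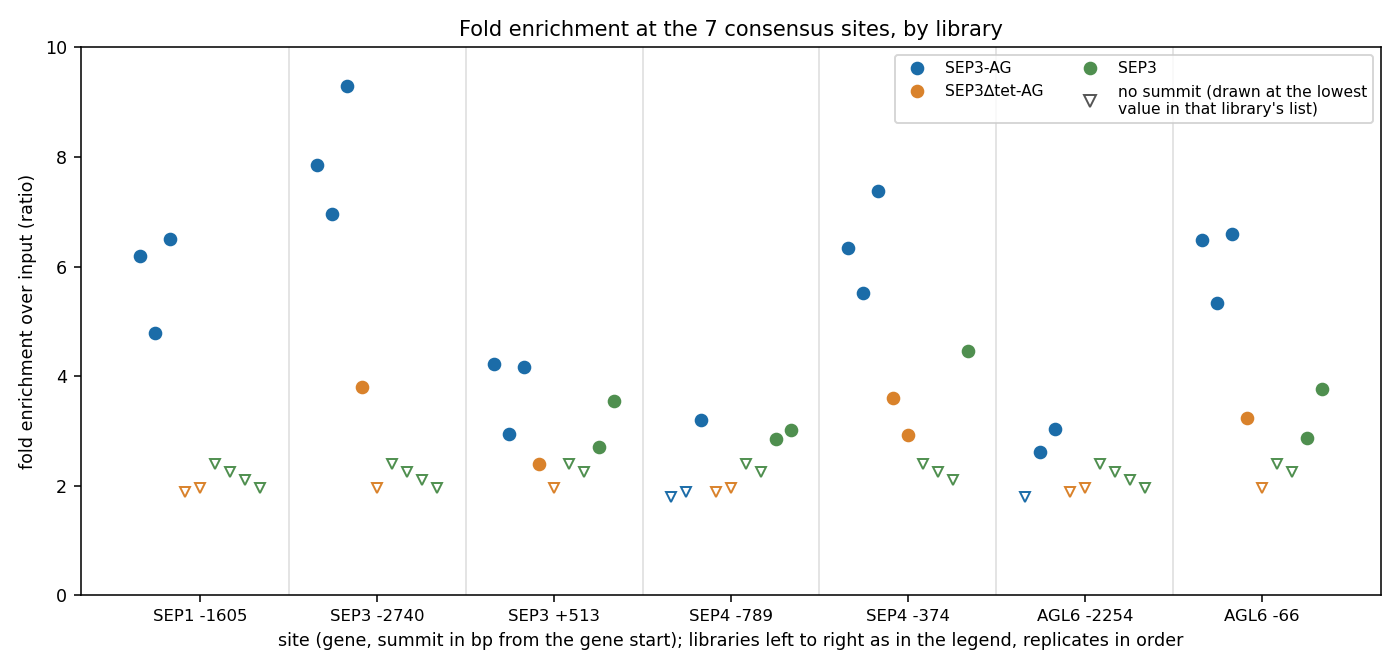
Fold enrichment over input (vertical axis, a ratio) at the 7 member consensus sites, with a filled point for each library that had a summit and an open triangle, placed at the lowest value in that library's list, where it had none. The highest value at every site is from SEP3-AG, whose values run from 2.61 to 9.29, and the triangles show that most SEP3 and SEP3∆tet-AG libraries had no value at the sites of SEP1 and upstream SEP3. At the SEP4 site 789 bp upstream, SEP3-AG replicates 1 and 2 had a peak region but no separate summit, so their triangles do not give a level.

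Fold enrichment was tested between complexes with limma over all sites of the genome that had a summit in the libraries needed. Between SEP3-AG and SEP3∆tet-AG, 1820 sites had a summit in all 5 libraries, among them the SEP4 site 374 bp upstream. SEP3-AG was higher there by 0.97 on the log2 scale (SE 0.23, 1.96-fold, limma with Benjamini-Hochberg adjustment, adjusted p = 8.46e-05), with all 3 SEP3-AG libraries above both SEP3∆tet-AG libraries. Of the tested sites, 75.2% were called higher in SEP3-AG, with a median difference of 0.80. The SEP4 site was 0.17 above that median and at or above 61.8% of sites, so its difference was close to that of a typical site. With each library centred on its median over the tested sites, the SEP4 difference was −0.00249 (limma adjusted p = 0.988). The median difference over the tested sites was then −0.18, and the SEP4 site was still 0.17 above it.

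Between SEP3-AG and SEP3, 1587 sites were tested, those with a summit in all 3 SEP3-AG libraries and at least 2 SEP3 libraries, and 78.5% were called higher in SEP3-AG with a median difference of 1.03. At AGL6, 66 bp upstream, SEP3-AG was higher by 0.89 (SE 0.25, 1.86-fold, limma adjusted p = 0.000519), which is 0.14 below the median. At the intron site of SEP3 the difference was 0.27 (SE 0.25, 95% interval −0.21 to 0.76, limma adjusted p = 0.31), which is 0.76 below the median and at or above 13.2% of tested sites. With a replicate block the intron difference was 0.62. It then came from replicate 3 alone, the only number shared by the libraries with a value, so the block cannot check the test. Without SEP3-AG replicate 2 the intron difference was 0.44 (limma adjusted p = 0.115), which did not pass the threshold. Both sites had values in SEP3 replicates 3 and 4 only, so neither could be tested without replicate 3 or replicate 4. With centred libraries the intron site was lower in SEP3-AG, by a log2 difference of −0.74 (limma adjusted p = 1.34e-05), and the AGL6 site differed by −0.12 (limma adjusted p = 0.456). With centred libraries, the differences at AGL6 and SEP4 were therefore no longer called in either direction. The intron site, not called without centring, was called lower in SEP3-AG. Its SEP3 mean came only from the libraries that listed a summit there, replicates 3 and 4. SEP3 replicates 1 and 2 may lie below their thresholds and had no value, which can raise that mean. Each SEP3 library was also centred on only those tested sites that it listed. The centred test therefore cannot decide whether SEP3-AG was lower at the intron site.

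Between SEP3∆tet-AG and SEP3, 1173 sites were tested and 11.9% were called higher in SEP3∆tet-AG. No member site had the summits needed for that test. At AGL6, SEP3∆tet-AG replicate 1 had 3.24 against 2.87 and 3.76 in SEP3, and in the SEP3 intron it had 2.40 against 2.70 and 3.54.

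**Figure D4:**
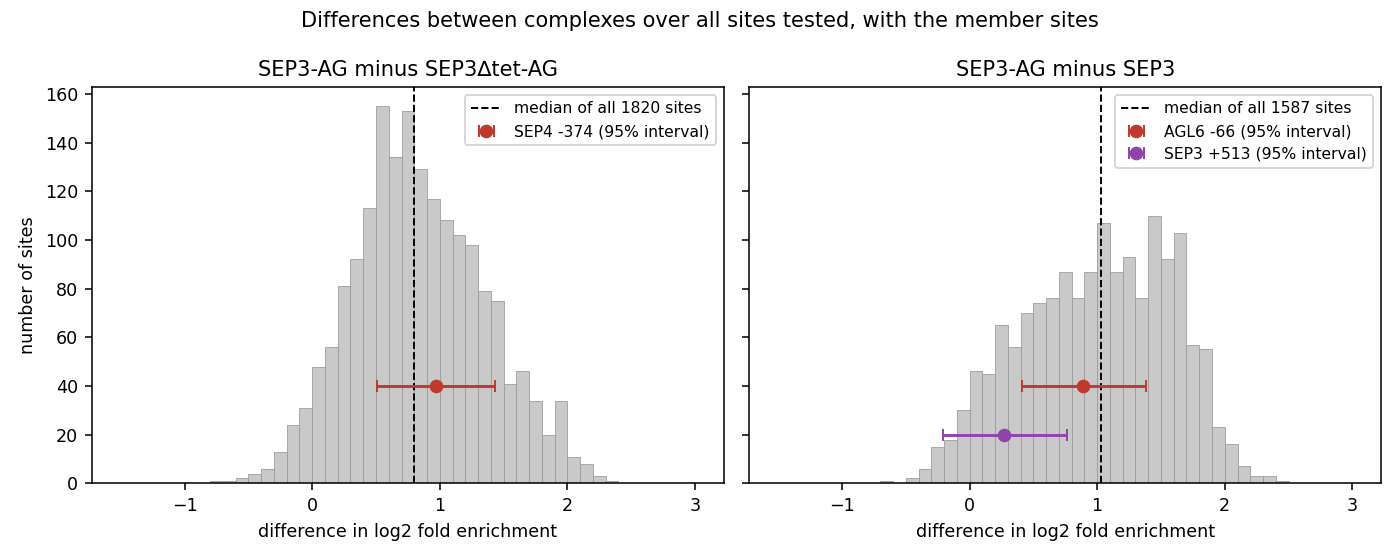
Histograms of the difference in log2 fold enrichment (horizontal axis) over all sites tested between SEP3-AG and SEP3∆tet-AG (left, 1820 sites) and between SEP3-AG and SEP3 (right, 1587 sites), with the median as a dashed line and member sites as points with 95% intervals at arbitrary height. SEP4 (0.97) and AGL6 (0.89) lie near the medians of 0.80 and 1.03, and the SEP3 intron site (0.27) lies low in its distribution.

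A tetramer can hold a pair of boxes, so pairs of boxes with at most 1 mismatch were sought within 200 bp of the summits. Of the 7 member consensus sites, 1 had a pair with centres 10 to 100 bp apart, the SEP4 site 374 bp upstream, whose boxes lay 12 bp apart. That distance is shorter than the spacings that the paper reports as enriched in SEP3-AG regions. The paper took its sites from scores of a binding model and not from mismatches to a box. Its pairs and these are therefore unlike measures, and preferred spacings at the members were not tested. Such a pair was present at 20.7% of all SEP3-AG consensus sites and in 6.01% of windows of that size upstream of all genes, so the members' count was near that of SEP3-AG sites in general.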

How the data were processed

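Peak lists of 9 libraries were analysed, 3 of SEP3-AG, 2 of SEP3∆tet-AG and 4 of SEP3. The input DNA came with no list and was the authors' control. The authors trimmed and aligned reads with bowtie2 to the nuclear chromosomes of TAIR10, kept unique reads with few mismatches, removed duplicates, and called peaks in each library against the input DNA with MACS2 (effective genome size 120000000, q threshold 0.0001). Replicates were not pooled. Versions are not given in the sources used here, except bcl2fastq 2.17 in the submitters' processing notes. The deposited fold enrichment is a ratio over local background, and the deposited −log10 of the p-value and −log10 of the q-value rank and filter the summits. Read depth was not used. Fragment pileups were recovered from fold enrichment and p, and lay between 43.2 and 255 at member summits over backgrounds of 15.0 to 32.0.

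Genes came from the TAIR10.1 annotation, whose chromosomes have the lengths of TAIR10, and 39 of 39 family names matched. Sites were built from the best-ranked summit downwards (within 200 bp, 50% overlap). Differences were tested on log2 fold enrichment with limma 3.58.1 in R 4.3.3 over all sites, adjusted by Benjamini-Hochberg. Groups came from the labels. Named items were all members, their sites and the boxes in their regions. Alternatives were any or every library, 80% overlap, −log10 q of at least 10, equal list lengths, a shorter region, centred libraries, a replicate block and leaving out each library. The members, lists and tests were chosen with earlier results of these data known. The matrix and the pileup recovery were added after seeing the data. Limma fits and site grouping were tested on simulated data. The simulated sites lay well apart with their summits close together. That is an easier setting than the member sites, whose summits spread by up to 187 bp.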

Additional observations from a re-analysis of the deposited data

Results flagged for a closer look

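The list of SEP3 replicate 4 held 8916 summits. Its gap to the next SEP3 list was 0.8292 of the range of the 4 lists, just past the critical value of Dixon's test, which chance passes in about 1 of 20 groups. The member summits of this library (10), its members with a summit (5) and its member summits per 1000 summits (1.12) were not apart from the other SEP3 libraries by the same test.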

How the results depend on the processing

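The count of SEP3-AG members with a site was 4 under most alternatives, among them each library left out, and 3 in the region from 1000 bp upstream to the gene end. That shorter region left 3 SEP3-AG sites and a mean of 3.33 summits per library. With the 473 best summits of every list, no complex had a member site (0 genes and 0 sites), because none of the member summits ranked among them. With any 1 library in place of 2, SEP3∆tet-AG had 4 sites at 3 members and SEP3 had 10 sites at 5 members. SEP3 had 0 sites at 0 members with −log10 q of at least 10 or when every library was required, and between 0 and 3 as each library was left out, 0 without replicate 3 or replicate 4. Leaving out a SEP3∆tet-AG library gave no value, since 1 library cannot make a consensus. Boxes were the same at 100 bp.

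With centred libraries, 357 sites were called higher and 702 lower in SEP3-AG than in SEP3∆tet-AG, 526 and 530 in SEP3-AG than in SEP3, and 232 and 132 in SEP3∆tet-AG than in SEP3, against 1368 and 5, 1246 and 1, and 140 and 2 as deposited. The log2 differences then became −0.00249 at SEP4, −0.74 in the SEP3 intron and −0.12 at AGL6. As each library was left out, the sites higher in SEP3-AG than in SEP3 numbered 668 (without SEP3 replicate 4) to 1311, and those higher in SEP3∆tet-AG than in SEP3 numbered 0 (without SEP3∆tet-AG replicate 1, with 77 at an unadjusted limma p under 0.05) to 251 (without SEP3 replicate 4). The cause of these shifts was not tested. With −log10 q of at least 10, the sites of AGL6 and the SEP3 intron could not be tested.

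With a replicate block, 34 sites were called higher in SEP3∆tet-AG than in SEP3, of 786 that could be fitted. The SEP4 site kept its call. At the AGL6 and SEP3 intron sites the block compared replicate 3 of SEP3-AG with replicate 3 of SEP3 only, so it could not check their results. The labels share numbers only, and deviations of same-numbered libraries correlated between −0.209 and 0.0692.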
